A study of Mus musculus with 4 samples.

Results

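The *Eln*-rich cells of the E14.5 mouse ventricle were 320 of 45551 barcodes, and they carried elastin and fibulin-5 transcripts together with most genes of the smooth muscle contractile apparatus. They were chosen by the counts of *Eln*, which encodes elastin (chr5:134702593-134747323, minus strand), and of *Fbln5*, which encodes an elastin-binding fibulin (chr12:101746565-101819055, minus strand). A member had 1000 to 7000 detected genes and at most 10% of its UMIs (unique molecular identifiers, each 1 counted transcript molecule) from mitochondrial genes. Its *Tnnt2*, *Actc1*, *Tnnc1* and *Ttn* UMIs together stayed under 0.5% of its total, which kept cardiomyocytes out, and it held at most 1 UMI of *Pecam1*, *Cdh5*, *Emcn* and *Egfl7*, which kept endothelial cells out. *Eln* and *Fbln5* together made up at least 0.3% of its UMIs, with at least 3 UMIs of *Eln*. Of the 45551 barcodes, 35351 passed the limits on genes and mitochondrial UMIs, 9176 of those were neither cardiomyocyte nor endothelial by these counts, and 320 of those were *Eln*-rich.

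The ventricles came from C57BL/6-background embryos at E14.5 that all carried *Tie2*Cre, a Cre recombinase driven by a promoter active in endothelial cells and their descendants. Control embryos were *Tie2*Cre;*Ets1* fl/+ and so had 1 floxed *Ets1* allele, and *Ets1* eKO embryos were *Tie2*Cre;*Ets1* fl/fl with both alleles floxed. Each genotype had 2 libraries, every library pooled 3 ventricles, the labels gave 1 batch, and no treatment was applied. The study used embryos of both sexes without genotyping them for sex, and the sexes in each pool were not given. Dissociated cells were profiled with 10x Genomics 3' single-cell RNA-seq.

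Control 1 held 72 *Eln*-rich cells, control 2 held 240, *Ets1* eKO 1 held 3 and *Ets1* eKO 2 held 5. As a share of all mesenchymal cells including the *Eln*-rich cells, that was 4.62% (exact binomial 95% interval 3.63 to 5.78) of 1559 cells in control 1, 13.7% (12.1 to 15.4) of 1754 in control 2, 0.217% (0.0447 to 0.632) of 1385 in *Ets1* eKO 1 and 0.327% (0.106 to 0.760) of 1531 in *Ets1* eKO 2. The 2 control libraries differed from each other beyond these intervals. How much of the great vessels or valves each pool of ventricles still carried was not given in the sources used here, so these counts are reported per library and no genotype comparison is drawn from them. The intervals cover counting error only.

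**Figure D1:**
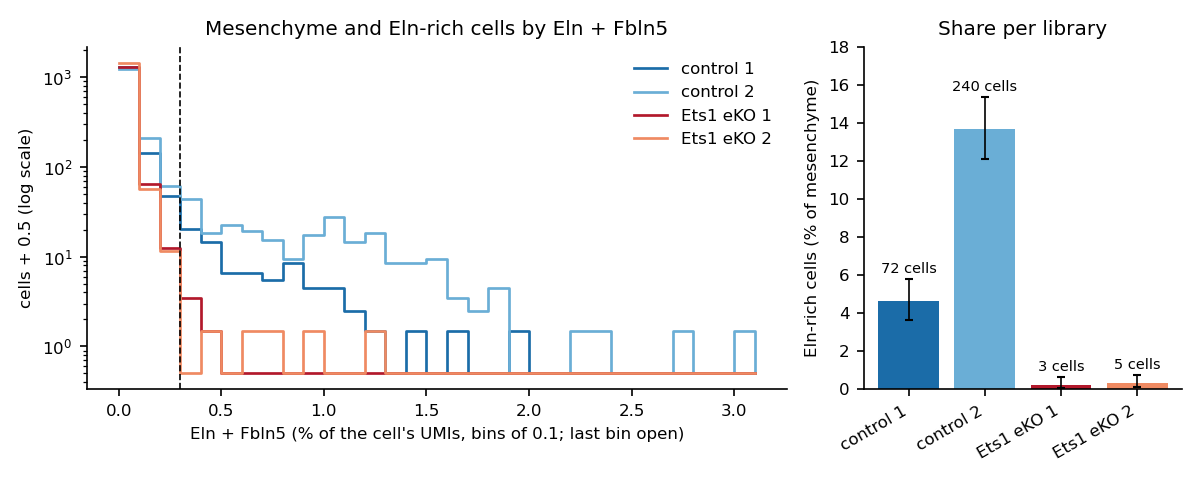
Left, number of cells (log scale, 0.5 added) in each library by the summed share of *Eln* and *Fbln5* in the cell's UMIs, in bins of 0.1%, for mesenchymal and *Eln*-rich cells, with the dashed line at the 0.3% limit. Right, *Eln*-rich cells as a percent of mesenchymal cells per library with exact 95% intervals: the 72 and 240 cells of the controls were 4.62% and 13.7%, and the 3 and 5 cells of the *Ets1* eKO libraries were 0.217% and 0.327%.

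Elastic arteries owe their recoil to elastin, which vascular smooth muscle cells and their precursors secrete in fetal life. Elastin is laid on a scaffold of fibrillin microfibrils, is brought there with the help of fibulins and is cross-linked by lysyl oxidases. In the developing heart, elastin is also made in the outflow tract and in the valves, and smooth muscle of the arterial trunk comes from neural crest and second heart field cells.

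The libraries held 76931208 to 124140739 UMIs over 7949 to 14951 barcodes, with a median of 5632 to 8630 UMIs per barcode. The *Eln*-rich cells had a median of 6354.5 UMIs in control 1 and 7082.5 in control 2, against 7032 and 6825.5 in other mesenchyme, and their summed UMIs were 521258 and 1845506. CPM here means a gene's count per 1000000 UMIs of 1 class of cells in 1 library. *Ets1*, the targeted gene, stood at 305 and 273 CPM in endothelial cells of the controls and at 136 and 102 in those of the *Ets1* eKO libraries; these are counts over the whole gene and do not read the floxed part alone. In *Eln*-rich cells *Ets1* gave 28 and 95 UMIs in the controls, and 1 and 0 in the 3 and 5 cells of the *Ets1* eKO libraries. Across the series, 191 barcode sequences occurred in more than 1 library, and none of the 320 members carried such a barcode.

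*Eln*-rich cells were set against 3 classes of mesenchyme from the same libraries. Other mesenchyme (1487 and 1514 cells in the controls) met the members' limits on detected genes and on mitochondrial, cardiomyocyte and endothelial UMIs, and was not *Eln*-rich. It had collagen *Col1a1*, *Col1a2* and *Col3a1* at 0.2% of UMIs or more and globin genes under 1%. It held at most 1 UMI of the epicardial genes *Upk3b*, *Upk1b*, *Lrrn4* and *Msln*, and at most 1 of the leukocyte genes *Ptprc*, *Tyrobp*, *Fcer1g* and *C1qa*. Members had no such limits on collagen, globin, epicardial or leukocyte UMIs. *Tcf21*-type mesenchyme (103 and 68 cells) was the share of other mesenchyme with at least 2 UMIs of *Tcf21*, a fibroblast lineage factor, and none of *Sox9*. *Sox9*-type mesenchyme (561 and 666 cells) was the share with at least 2 UMIs of *Sox9*, a factor of cushion and valve mesenchyme, and none of *Tcf21*. UMIs were summed per library and class, and the sums were tested with edgeR's quasi-likelihood test with library as a term and Benjamini-Hochberg adjustment over all genes tested. Only the 2 control libraries held the 10 members needed for a sum. Of 320 members, 273 also met every condition set for other mesenchyme, 27 had less collagen, 19 had over 1 UMI of epicardial genes and 1 had over 1 UMI of leukocyte genes.

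Against other mesenchyme, 811 of 13670 genes were higher in *Eln*-rich cells (5.93% of those tested) and 672 were lower (4.92%), at an adjusted p of at most 0.05. Over the 13670 genes the log2 fold change had a median of -0.05. DESeq2, run as an alternative, called 493 genes, all of them among the 1483 edgeR calls with the same sign. The cells were selected on *Eln* and *Fbln5* in these same libraries, so the calls describe which transcripts accompany the 2 genes in these cells. They are no independent evidence of a cell type.

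The values that chose the cells are given as a description. *Eln* stood at 4712 and 6569 CPM in *Eln*-rich cells of control 1 and control 2, against 215 and 312 in other mesenchyme. *Fbln5* stood at 1876 and 2070, against 143 and 161. The summed share of both genes had a median of 0.536% per member in control 1 and 0.852% in control 2, with a highest value of 3.04%. In the 3 and 5 members of the *Ets1* eKO libraries, *Eln* gave 33 and 106 UMIs and *Fbln5* gave 18 and 37. Cells just outside the limit, at 0.2% to 0.3%, numbered 47 in control 1 and 61 in control 2, and cells just inside it, at 0.3% to 0.4%, numbered 20 (19 of them members, since the *Eln* minimum also applied) and 43. *Eln* was at 1289 and 1514 CPM in the cells just outside and at 2070 and 2241 in those just inside, so the limit cut through a continuous range and not through a gap. The label's other markers, *Prdm6*, a chromatin repressor of smooth muscle precursors, and *Sfrp2*, a secreted Wnt modulator, were also high. *Prdm6* stood at 259 and 413 CPM against 17.5 and 37.9 in other mesenchyme, and *Sfrp2* at 1984 and 1534 against 293 and 545.

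Most genes of the smooth muscle contractile apparatus were higher in *Eln*-rich cells than in other mesenchyme. Of 14 contractile genes, all tested, 13 were higher, 0 were lower and 1 was not called, with a median log2 fold change of 2.13 beside -0.05 over all genes tested. Summed over the list, their level was 4462 and 7307 CPM in *Eln*-rich cells of control 1 and control 2, against 1754 and 1715 in other mesenchyme. Both sums of *Eln*-rich cells lay above both sums of other mesenchyme. With 2 libraries this is a description, and how often other genes or lists separate in this way was not counted. DESeq2 called 12 of the 14 higher and 0 lower. In a fit over every library that held a member, 9 of 13 were higher without control 1 and 7 of 12 without control 2, with 0 lower in either.

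*Acta2*, which encodes smooth muscle α-actin (chr19:34241090-34255590, minus strand, build GRCm38, GENCODE vM21), was at 1260 and 2094 CPM in *Eln*-rich cells and at 283 and 245 in other mesenchyme. Both control libraries thus lay above both values of other mesenchyme, and the log2 fold change was 2.65 (SE 0.19, edgeR adjusted p = 2.28e-12). *Myl9*, the regulatory light chain of smooth muscle myosin (chr2:156775420-156781658, plus strand), was at 366 and 554 against 78.5 and 80.0, a log2 fold change of 2.54 (SE 0.17, edgeR adjusted p = 1.58e-13).

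The promoters of these genes are shown because smooth muscle genes are classically controlled through CArG boxes, the sites of serum response factor and its partner myocardin, in which CC and GG enclose a core of A and T bases. The 250 bases before the RefSeq start site were searched in 11 promoters of 10 of the 14 contractile genes. The box is its own reverse complement in form, so a match on 1 strand is a match on both. *Myl9* held an exact match 161 bases before its start site and another with 1 core base that is not A or T 99 bases before it, and *Acta2* held boxes with 1 such base 84 and 34 bases before its start site. An exact box stood in 1.47% of all 32851 RefSeq promoters of that length, and a box with at most 1 such base in 8.59%. Among the 11 promoters of contractile genes 1 held an exact box and 2 held either kind. These are matches of letters, and binding was not measured. Both *Acta2* boxes lay inside the GENCODE gene, whose start is further upstream than that of RefSeq. The stretch of *Myl9* before its GENCODE start (chr2:156775214-156775419, plus strand) follows from RefSeq GRCm38.p6, 5′ to 3′, with the boxes in capitals. After it come the 30 bases around each *Acta2* box (chr19:34255438-34255467 and chr19:34255388-34255417, minus strand).
Myl9 upstream: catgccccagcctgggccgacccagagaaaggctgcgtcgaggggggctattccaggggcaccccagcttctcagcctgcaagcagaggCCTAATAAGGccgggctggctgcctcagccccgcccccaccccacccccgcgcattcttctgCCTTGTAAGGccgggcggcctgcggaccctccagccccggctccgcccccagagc
Acta2 box at 84 bases: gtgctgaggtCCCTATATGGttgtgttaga
Acta2 box at 34 bases: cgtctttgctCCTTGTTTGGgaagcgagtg

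*Tagln*, the actin-binding protein transgelin, was at 1078 and 1481 CPM against 336 and 319 (log2 fold change 1.97, SE 0.17, edgeR adjusted p = 8.9e-11). *Cnn1*, which encodes calponin, was at 78.7 and 154 against 22.8 and 37.2 (1.98, SE 0.17). *Lmod1*, leiomodin 1, which nucleates actin filaments in smooth muscle, was at 57.6 and 97.5 against 1.29 and 3.58. It was close to absent from other mesenchyme, and its log2 fold change was 5.01 (SE 0.28, edgeR adjusted p = 2.89e-15). Among called genes with a mean of at least 30 CPM in the higher class, this was 1 of the 15 largest increases. *Myocd*, which encodes the co-activator myocardin, was at 53.7 and 146 against 12.4 and 15.3 (2.87, SE 0.23). *Synpo2*, *Actg2*, *Des*, *Tpm2*, *Cald1* and *Smtn*, which encode Z-disc, actin, filament and thin filament proteins of contractile cells, were higher by 2.56, 2.28, 1.36, 1.32, 0.84 and 0.84 on the log2 scale. *Smtn*, smoothelin, had the largest adjusted p of the 13 (edgeR, 0.0116).

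*Myh11* and *Mylk* differed from the rest of the list. *Myh11*, the smooth muscle myosin heavy chain and a marker of differentiated contractile cells, had 1 UMI in the 72 members of control 1 and 115 UMIs in 24 of the 240 members of control 2, against 1 and 6 UMIs in other mesenchyme. Its log2 fold change of 6.63 (SE 0.57, edgeR adjusted p = 8.89e-11) therefore rested on control 2. Most members had no *Myh11* UMI. *Mylk*, which encodes myosin light chain kinase, was at 21.1 and 26.0 CPM against 43.6 and 35.2, a difference of -0.60 on the log2 scale that did not pass (edgeR adjusted p = 0.118). It was the 1 gene of the list lower at an unadjusted p under 0.05, and among members that also met every condition of other mesenchyme it was called lower (-1.07).

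**Figure D2:**
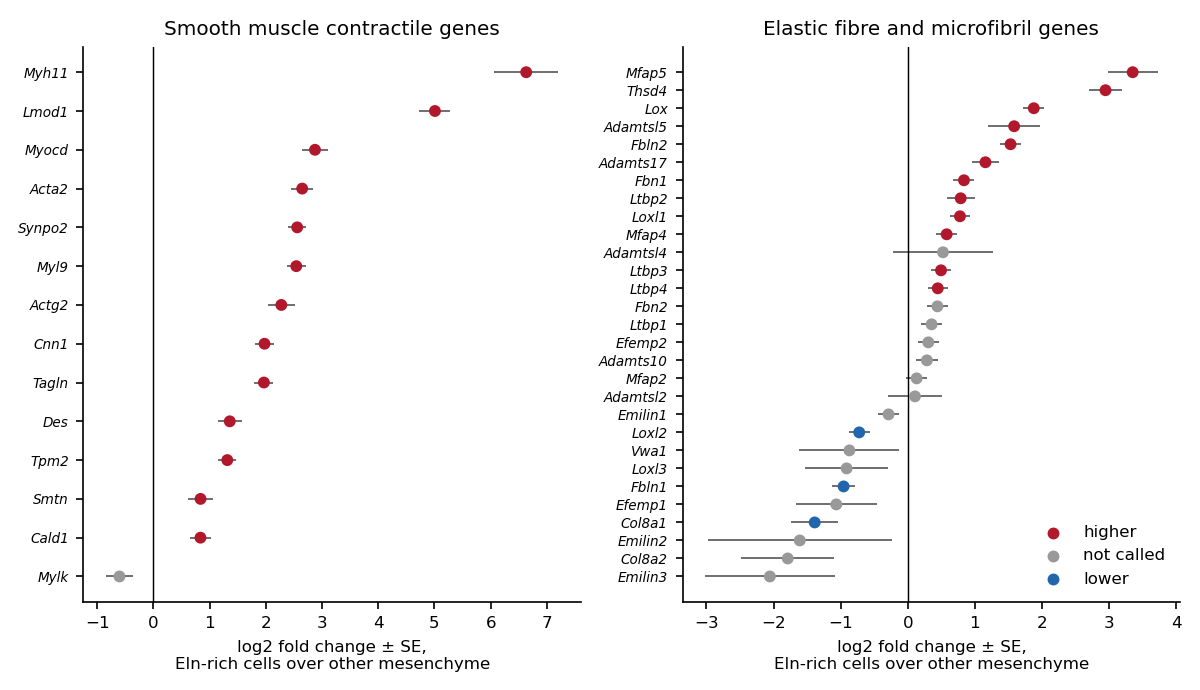
Log2 fold change (point) ± SE (line) of *Eln*-rich cells over other mesenchyme from edgeR over the 2 control libraries, for 14 smooth muscle contractile genes (left) and 29 elastic fibre and microfibril genes (right), with called genes in red (higher) or blue (lower). On the left 13 of 14 genes were called higher, and on the right 12 were called higher and 3 lower.

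The share of cells with a UMI gave the same order for *Acta2* when each cell was thinned to 2000 UMIs, which left 71 and 237 members and 1477 and 1502 other mesenchymal cells. *Acta2* was found in 62.0% (exact 95% interval 49.7 to 73.2) and 75.1% (69.1 to 80.5) of members and in 20.8% and 18% of other mesenchyme. Cardiomyocytes, which express *Acta2* at this age, gave 71.2% and 68.6%, and endothelial cells, which should lack it, gave 5.89% and 2.92% as the level that free RNA can bring. Cardiomyocytes exceeded members for other contractile genes, with *Myocd* in 53.2% and 52.9% of cardiomyocytes and 5.63% and 21.1% of members, *Des* in 61.1% and 62.8% against 12.7% and 15.2%, and *Myl9* in 64.8% and 69.7% against 42.3% and 56.1%. Of 12 cardiomyocyte genes tested, 4 were also higher in members than in other mesenchyme, as given with the lists of other cell types. With the cardiomyocyte gate at 0.1% of UMIs in both classes, 13 of the 14 contractile genes were higher (median 2.06), among them *Myl9* (2.44), *Des* (1.12) and *Myocd* (2.90). Without thinning the members gave 73.6% and 85% and endothelial cells 20.1% and 11.2%. *Lmod1* was found in 11.3% and 15.2% of members, 0.203% and 0.533% of other mesenchyme, 0.0652% and 0.130% of cardiomyocytes and 0 of 1630 and 1 of 1163 endothelial cells. At 2000 UMIs a cell, a count of 0 of 1630 allows a share of cells with a UMI of up to 0.184% at a floor of 3 counts (exact 95% upper limit 0.226%), and without thinning 2 of 1639 had one. *Myh11* was found in 0 of 71 members of control 1, which allows up to 4.23% at the same floor (exact upper limit 5.06%) and stood at 1 of 72 without thinning, and in 3.8% of those of control 2. These limits hold for detection at that depth and not for the share of cells that express the gene. The share of cells with *Acta2* was higher in members by 41.2 and 57.1 percentage points in the 2 libraries, and an exact paired permutation test over 2 libraries cannot go below p = 0.5.

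**Figure D3:**
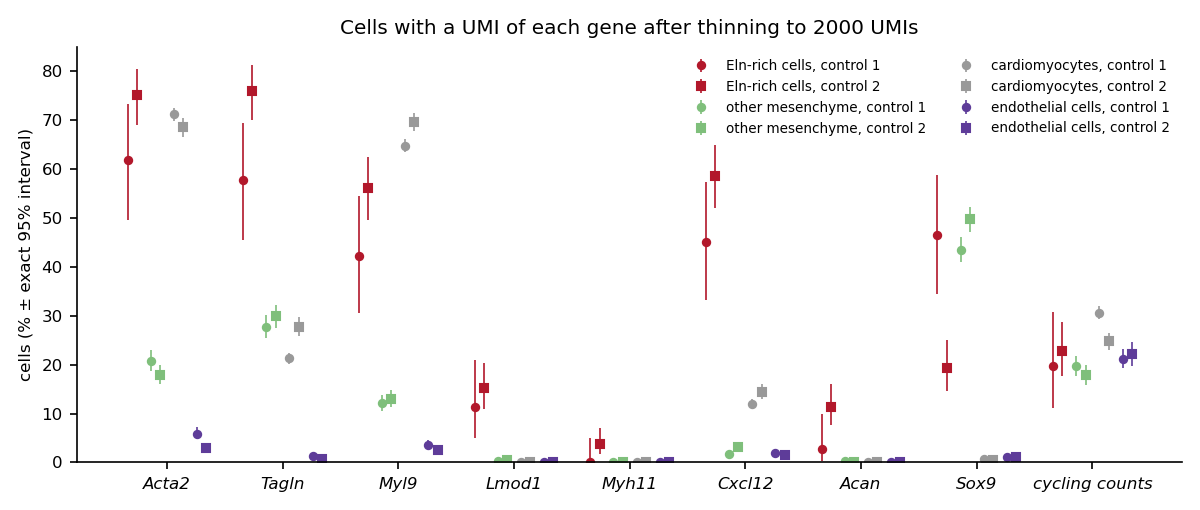
Percent of cells with at least 1 UMI of each gene after thinning every cell to 2000 UMIs, by class and control library, with exact 95% intervals. For cycling counts, a cell needed at least 2 UMIs of *Mki67*, *Top2a*, *Cdk1*, *Cenpf* and *Birc5* together. *Acta2* was found in 62.0% and 75.1% of *Eln*-rich cells and in 20.8% and 18% of other mesenchyme, while cycling cells made up 19.7% and 22.8% of *Eln*-rich cells and 19.7% and 17.8% of other mesenchyme.

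Genes of elastic fibres and microfibrils, apart from *Eln* and *Fbln5* themselves, were mixed. Of 29 tested, 12 were higher, 3 were lower and 14 were not called, with a median log2 fold change of 0.36, while DESeq2 called 5 higher and 1 lower. Summed over the list without the 2 gate genes, the level was 6335 and 6541 CPM against 4194 and 4723 in other mesenchyme. In the fit over every library that held a member, 3 of 27 were higher and 0 lower without control 1, and 3 of 26 were higher and 1 lower without control 2. *Mfap5*, which encodes a microfibril-associated glycoprotein, was at 36.5 and 35.8 CPM against 2.66 and 4.28 (3.35, SE 0.37, edgeR adjusted p = 2.04e-08). *Thsd4*, which encodes ADAMTSL6, a promoter of fibrillin assembly, was at 53.7 and 155 against 14.7 and 13.4 (2.95, SE 0.25). *Lox*, lysyl oxidase, was at 119 and 204 against 39.5 and 49.9 (1.88, SE 0.16, edgeR adjusted p = 3.57e-11), with control 2 the higher in both classes. *Fbln2*, fibulin-2, was at 1239 and 1284 against 376 and 512 (1.53, SE 0.16).

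Increases were also called for *Adamtsl5* (1.59), *Adamts17* (1.16), *Fbn1* (0.84), the latent TGF-β binding protein genes *Ltbp2* (0.79), *Ltbp3* (0.50) and *Ltbp4* (0.45), *Loxl1* (0.78) and *Mfap4* (0.58), all on the log2 scale. *Fbn2*, fibrillin-2, the main fetal fibrillin, was high in both classes at 1328 and 1248 against 873 and 1041 CPM, and its difference of 0.44 did not pass (edgeR adjusted p = 0.0809). The 3 genes that were lower were *Col8a1* (-1.39), *Fbln1* (-0.96) and *Loxl2* (-0.72). *Fbln1*, fibulin-1, was at 104 and 151 CPM against 279 and 240. *Fbln2* and *Fbln1* thus differed in opposite directions.

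Over all genes tested, the largest differences among those with a mean of at least 30 CPM in the higher class were led by *Myh11*, *Cxcl12*, *Acan* and *Lmod1*. *Cxcl12*, a chemokine that signals through CXCR4 (chr6:117168535-117181367, plus strand), was at 495 and 626 CPM against 7.89 and 18.3, a log2 fold change of 5.50 (SE 0.19, edgeR adjusted p = 2.5e-20). Its 7 and 14 UMIs in the 3 and 5 members of the *Ets1* eKO libraries came to 524 and 810 CPM. After thinning it was found in 45.1% and 58.6% of members, 1.62% and 3.13% of other mesenchyme, 12.0% and 14.5% of cardiomyocytes and 1.84% and 1.46% of endothelial cells. No class set beside the members reached their share.

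*Acan*, the cartilage and valve proteoglycan aggrecan (chr7:79053483-79115099, plus strand), was at 26.9 and 75.3 CPM against 1.97 and 1.14 (5.08, SE 0.40, edgeR adjusted p = 1.44e-11). It was found in 6 of 72 and 60 of 240 members, and those with a UMI of it had 7839 and 8816 CPM of *Eln* against 4223 and 5649 in members without. Members with a UMI of *Acan* were also deeper, with medians of 10883 and 8048 UMIs against 6172.5 and 6768.5. *Eln* is a gene of the rule, so this split is a description. *Pcdh7*, a protocadherin, was at 572 and 1276 against 40.3 and 51.4 (4.26). *Cd55*, which encodes a brake on complement, was at 86.3 and 112 against 2.06 and 5.59 (4.71), and *Sost*, which encodes the Wnt antagonist sclerostin, was at 36.5 and 56.9 against 3.17 and 1.14 (4.6). *Mtus2*, which encodes a microtubule-associated protein, was at 292 and 317 against 21.5 and 24.4 (3.74).

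Libraries disagreed more for other leading genes. *Alk*, a receptor tyrosine kinase gene, was at 7.67 CPM in members of control 1 and 57.4 in those of control 2, against 1.03 and 1.31 (4.76), and these levels came from 3 of 72 and 20 of 240 members (4 and 106 UMIs). *Ccser1* was at 13.4 and 87.2 against 3.09 and 4.45 (3.75), and *Clca3a2*, whose close paralogs can share reads with it, at 40.3 and 170 against 4.97 and 5.50 (4.31). The remaining leading genes were *Gm15050* (4.80), *Hotairm1* (4.2) and *Dync1i1* (4.04).

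**Figure D4:**
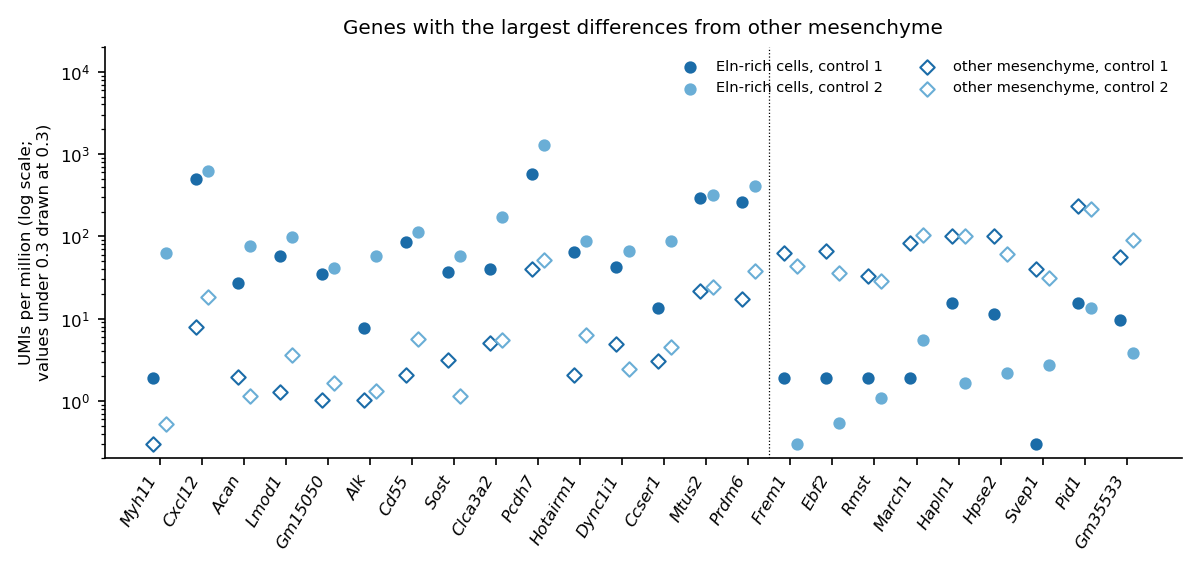
Levels in CPM (log scale, values under 0.3 drawn at 0.3) of the 15 genes with the largest increases and, right of the dotted line, 9 of the 10 with the largest decreases, in *Eln*-rich cells (filled) and other mesenchyme (open) of each control library. *Cxcl12* stood at 495 and 626 against 7.89 and 18.3, and *Pid1* at 15.3 and 13.5 against 234 and 214.

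Several of the genes with the largest decreases had only 1 to 3 UMIs in *Eln*-rich cells. *Frem1*, a basement membrane protein gene, had 1 UMI in members and 1215 in other mesenchyme of the controls, a ratio of 124 (95% counting interval 22.3 to 4915). *Ebf2*, a mesenchymal transcription factor gene, had 2 UMIs against 1172, a ratio of 60.02 (16.6 to 496), and the long noncoding RNA *Rmst* had 3 against 704, a ratio of 24 (8.22 to 117). *Hapln1*, which links hyaluronan to proteoglycan in the cushions (chr13:89539796-89611652, plus strand), was at 15.3 and 1.63 CPM against 101 and 102, a log2 fold change of -4.34 (SE 0.34, edgeR adjusted p = 8.62e-12). *Pid1*, a regulator of insulin receptor signaling, was at 15.3 and 13.5 against 234 and 214 (-3.94, SE 0.21). *March1* (-4.41), *Hpse2* (-4.00), *Svep1* (-3.97) and *Gm35533* (-3.94) were lower as well.

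Cushion mesenchyme genes were lower as a group. Of 18, all tested, 12 were lower and 0 higher by edgeR (1 higher at an unadjusted p under 0.05, 0 by DESeq2), with a median log2 fold change of -1.56, and the summed level was 2154 and 1347 CPM against 3549 and 4077. In the fit over every library that held a member, 9 of 17 were lower without control 1 and 4 of 16 without control 2. The median moved with the limit on *Eln* and *Fbln5*, to -0.54 at 0.2% (9 lower, 1 higher) and -2.74 at 0.6% (15 lower, 0 higher). *Adamts19*, a protease gene of valve mesenchyme, was at 78.7 and 26.0 CPM against 390 and 461 (-3.31, SE 0.24, edgeR adjusted p = 2.28e-12). *Tbx20*, a cardiac T-box factor gene, was at 570 and 345 against 1359 and 1466 (-1.67, SE 0.18). *Sox9* did not have the same position in the 2 libraries. It was at 378 CPM in members of control 1, near the 349 of other mesenchyme there, and at 144 against 421 in control 2, so its call (-0.73, edgeR adjusted p = 0.0207) came from control 2, and within control 1 the difference was 0.11.

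Extracellular matrix beyond the elastic fibre divided in the same cells. Of 32 proteoglycan and glycoprotein genes tested, 7 were higher and 10 lower (median -0.34). *Mgp*, matrix Gla protein, an inhibitor of arterial calcification, was at 3843 and 2782 CPM against 1135 and 1231 (1.48, SE 0.18), and the matricellular genes *Ccn3* (3.11) and *Ccn2* (0.97) were also higher. *Postn*, periostin, was at 366 and 182 against 1271 and 1115 (-2.21, SE 0.18), *Vcan*, versican, at 416 and 200 against 986 and 1144 (-1.89), and *Has2*, which encodes hyaluronan synthase 2, at 30.7 and 21.7 against 127 and 122 (-2.32). Of 18 collagen genes tested, 2 were higher, *Col14a1* (0.78) and *Col12a1* (0.67), and 8 were lower, among them *Col26a1* (-3.10), *Col2a1* (-2.05), *Col6a1* (-1.04) and *Col4a1* (-0.80). The fibrillar collagens of the mesenchyme gate were not tested.

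Transcription factors of the outflow tract and neural crest were called in both directions, 11 of 48 tested higher and 17 lower, with a median of 0.26. *Isl1*, a factor of the second heart field, was at 48.0 and 37.9 CPM against 3.60 and 8.03 (2.82, SE 0.34, edgeR adjusted p = 1.01e-07), with UMIs in 16 of 72 and 56 of 240 members. *Osr1* was at 61.4 and 175 against 12.2 and 14.1 (3.19), and *Hand1* at 34.5 and 31.4 against 1.97 and 8.03 (2.71). *Klf2*, a gene induced by flow in endothelium, was at 879 and 321 against 286 and 132 (1.46), higher in control 1 in both classes. *Meis1* (0.94) and *Foxc1* (0.85) were higher by less. The lower genes included the valve and chamber factors *Tbx2* (-2.81), *Tbx3* (-2.41), *Msx1* (-1.89), *Twist1* (-1.37) and *Gata4* (-0.93).

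Ligands and receptors made up much of the rest. Of 48 growth factor, guidance and chemokine genes tested, 17 were higher and 13 lower, with a median of -0.02. *Pdgfa* was at 61.4 and 80.7 CPM against 11.6 and 9.61 (2.82), and *Pdgfc* (2.36) and *Pdgfd* (1.44) were higher with it. The receptor genes *Pdgfra* (-1.84) and *Pdgfrb* (-0.74) were lower, at 51.8 and 51.5 against 168 and 199 and at 67.1 and 66.6 against 116 and 112. All 3 PDGF ligand genes of the list were thus higher and both receptor genes were lower.

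*Slit3*, a guidance ligand, was at 409 and 998 CPM against 106 and 133 (2.47, SE 0.19, edgeR adjusted p = 5.97e-12), while its relative *Slit2* was at 182 and 384 against 869 and 641 (-1.39, SE 0.22). The 2 guidance genes thus differed in opposite directions in both libraries. *Hgf*, hepatocyte growth factor, was at 146 and 57.4 against 9.44 and 8.91 (3.31), *Bdnf*, a neurotrophin gene, at 36.5 and 60.7 against 3.52 and 4.98 (3.54), and *Fgf18* at 9.59 and 21.1 against 1.97 and 1.40 (3.33). *Ednra*, the endothelin receptor of smooth muscle and its precursors, was at 59.5 and 68.3 against 24.9 and 39.1 (0.99), and *Igf2* was higher by 0.85. *Angpt1*, angiopoietin 1, was at 15.3 and 7.04 against 83.9 and 74.2 (-3.04).

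In the Wnt list, 8 of 29 tested genes were higher and 6 lower (median 0.17). The ligand gene *Wnt5a* was at 129 and 135 CPM against 36.2 and 56.5 (1.5, SE 0.16, edgeR adjusted p = 7.47e-09). Its 2 ROR receptors differed in opposite directions, *Ror1* at 219 and 520 against 114 and 139 (1.49) and *Ror2* at 32.6 and 21.1 against 108 and 129 (-2.29). *Fzd1* (1.39) and *Lgr6* (3.25) were higher, and *Axin2* (-2.39), a target of canonical Wnt signals, and *Lef1* (-1.45), their nuclear factor, were lower.

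In the TGF-β and BMP list, 8 of 34 tested genes were higher and 5 lower (median 0.04). *Bmp4* was at 115 and 132 CPM against 39.9 and 56.7 (1.36), *Bmpr1b*, a BMP receptor gene, at 23.0 and 46.6 against 2.32 and 4.80 (3.31), and *Fstl3*, a follistatin-like activin antagonist, at 38.4 and 59.6 against 15.7 and 15.2 (1.75). *Tgfbr2*, the type 2 TGF-β receptor, was higher by 0.67. *Bmp2*, a cushion ligand, was at 38.4 and 15.2 against 61.9 and 79.7 (-1.72), and *Bmper* (-1.5) and *Serpine2* (-2.45) were lower with it. In the Notch list, 3 of 14 tested genes were higher, *Dlk1* (1.65), *Jag1* (1.43) and *Notch3* (0.55), and 0 were lower by edgeR, by DESeq2 or at an unadjusted p under 0.05. DESeq2 called 2 of the 14 higher, and in the fit over every library 2 of 12 were higher without control 1 and 0 of 12 without control 2. *Jag1*, the ligand that passes arterial smooth muscle identity between neighboring cells, was at 42.2 and 52.6 against 17.7 and 18.7 (SE 0.23, edgeR adjusted p = 1.95e-05).

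Lists of other cell types were read in the same way. Of 10 pericyte and mural genes tested, 3 were higher and 3 lower. *Rgs5* was at 111 and 207 CPM against 34.4 and 36.2 (2.22), and *Cspg4* was higher by 0.93. The pericyte genes *Ndufa4l2* (-2.90) and *Kcnj8* (1 UMI in members, 214 in other mesenchyme) were lower, and *Higd1b* and *Vtn* had no UMI in members. Cardiomyocyte genes outside the gate summed to 1840 and 1995 CPM against 1490 and 974, with 4 of 12 tested higher, *Actn2* (1.91), *Nkx2-5* (1.65), *Tpm1* (1.03) and *Tnni1* (0.70). With the cardiomyocyte gate at 0.1% of UMIs in both classes, *Acta2* kept a log2 fold change of 2.52 and *Lmod1* one of 4.99. Endothelial genes outside the gate summed to 82.5 and 65.6 against 70.2 and 68.5, with *Flt1* (1.01) and *Tie1* (2.35) called higher and *Cldn5* at 0 in members. *Flt1* was at 15.3 and 35.8 CPM against 17.9 and 12.8, so that it was higher in control 2 alone, and its log2 fold change without control 2 was -0.30 in the fit over every library. Leukocyte genes outside the gate stood at 1.92 and 16.8 against 4.72 and 2.45, with leukocyte counts limited in other mesenchyme and not in members. Of 5 Schwann and neuronal genes tested 2 were lower.

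Epicardial genes outside the gate summed to 99.8 and 158 CPM against 150 and 133, with epicardial counts limited in other mesenchyme and not in members. Of 6 tested, 3 keratin genes were higher, *Krt18* (3.76), *Krt8* (3.29) and *Krt19* (2.98), and *Aldh1a2* was lower (-1.78). *Upk3b*, a mesothelial gene of the gate, had UMIs in 3 of 72 members of control 1 and 25 of 240 of control 2. Among members that also met every condition for other mesenchyme, which removes cells with over 1 epicardial UMI, the log2 fold change of *Krt18* was 3.77 and that of *Acta2* was 2.73.

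In the main fit, cell cycle genes did not separate *Eln*-rich cells from other mesenchyme. Of 27 tested, 0 were called in either direction by edgeR, with a summed level of 2089 and 2132 CPM against 2122 and 1950. Cycling cells were counted apart from that list, as those with at least 2 UMIs of *Mki67*, *Top2a*, *Cdk1*, *Cenpf* and *Birc5* together. The share of such cells after thinning differed by a mean of 2.48 percentage points (0.0162 and 4.94 in the 2 libraries). Without thinning the shares were 27.8% and 30.4% of members and 29.1% and 25.8% of other mesenchyme. Of the 27 genes, edgeR gave 3 higher and 2 lower at an unadjusted p under 0.05, and DESeq2 called 0. With the limit at 0.6% of *Eln* and *Fbln5*, which leaves 194 members, 9 of the 27 were higher. Among members that also met every condition of other mesenchyme, 3 were higher. With cells over 2 times the median UMIs left out, 2 were higher, and each of these alternatives gave 0 lower. Stress and immediate early genes were higher for 7 of 16 and lower for 0, with summed levels of 10135 and 5505 against 5862 and 5073. *Fos*, an early response gene that dissociation can raise, was at 2985 and 1257 against 1317 and 1061 (0.72, edgeR adjusted p = 0.00617), and most of that difference lay in control 1. DESeq2 called 2 of the 16 and the fit without library as a term called 1. In the fit over every library 1 of 16 was higher, and without control 1 or control 2 there were 0, with medians of -0.26 and -0.07 where the median over the controls was 0.38. The part of this response in the other calls was not tested.

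Within the members and the cells below the limit, levels were followed over bins of *Eln* plus *Fbln5*. The bins use the 2 genes of the rule, so this is a description with no test. *Acta2* went from 268 and 216 CPM in cells with under 0.1% of *Eln* and *Fbln5* to 671 and 533 at 0.2% to 0.3%. It stood at 424 and 901 at 0.3% to 0.4%, where 19 of the 20 cells of control 1 were members. At 1% or more it reached 2423 and 3122 in 10 and 97 cells. In control 1 the first member bin thus had less *Acta2* than the cells just left out, and *Tagln* likewise stood at 551 CPM against 858 there, while in control 2 it went from 660.1 to 1006. *Cxcl12* went from 5.48 and 6.59 to 68.7 and 163 in cells at 0.2% to 0.3% and 1011 and 870 in those at 1% or more. Both genes were thus already above the lowest bin in cells the rule left out. *Acan* had its higher values only toward the top, with 89.2 and 163 CPM at 1% or more against 0 and 24.5 at 0.3% to 0.4%.

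*Postn*, of the proteoglycan and glycoprotein list, ran the other way, from 1271 and 1149 CPM in the lowest bin to 193 and 95.6 in the highest. Genes of the cushion list did not move together. *Tbx20* went from 1345 and 1487 to 238 and 247. *Penk* first rose, from 14.9 and 16.8 to 87.4 and 62.4 at 0.2% to 0.3%, and was at 0 and 2.81 at 1% or more. *Adamts19* was highest at 0.1% to 0.2%, at 680 and 507, and reached 0 and 1.41 at the top. *Sox9* was at 743 and 270 at 0.3% to 0.4% and at 238 and 39.4 at 1% or more. In control 1, cells just above the limit thus had more *Sox9* than the lowest bin (318), and those at the top had less. The 4 member bins of control 1 held 10 to 23 cells each, the smallest being the highest bin. In the bin below it, at 0.6% to 1%, *Acta2* was at 1648 and 1700 CPM and *Cxcl12* at 751 and 635.

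**Figure D5:**
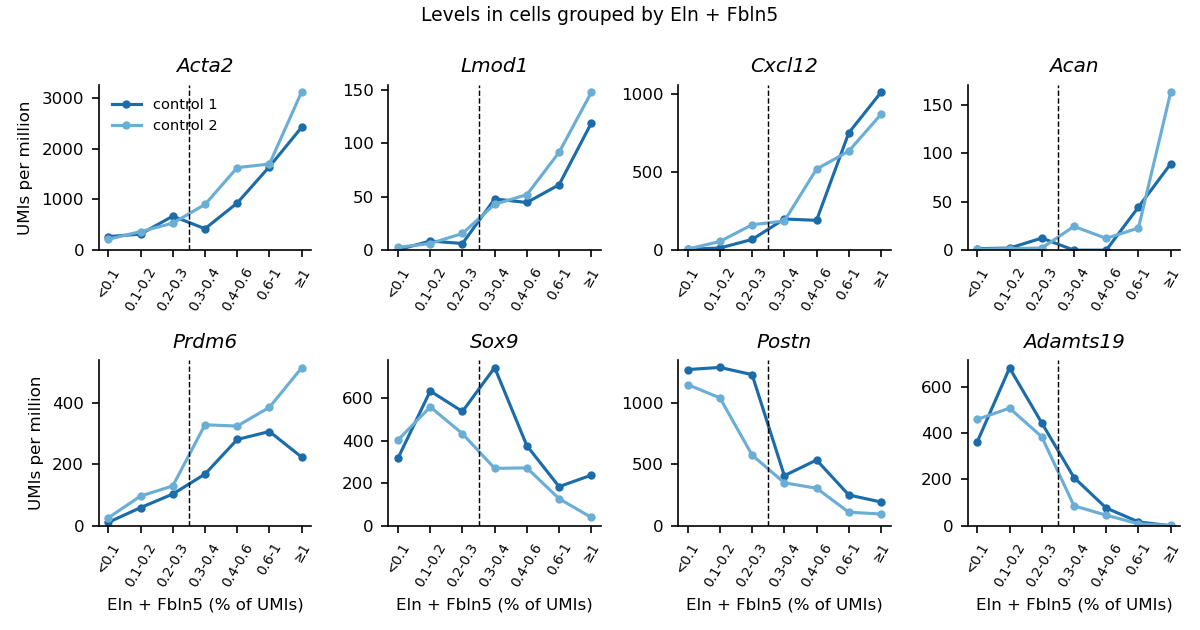
Levels of 8 genes in CPM (y axes) in cells of the 2 control libraries grouped by *Eln* plus *Fbln5* as a percent of UMIs (x axis), with the dashed line at the 0.3% limit of membership. *Acta2* went from 268 and 216 in the lowest bin to 2423 and 3122 in the highest, and *Postn* from 1271 and 1149 to 193 and 95.6.

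*Tcf21*-type and *Sox9*-type mesenchyme served as comparisons with narrower classes, and both share the *Eln*-rich sums with the comparison above. Against *Tcf21*-type mesenchyme, 1015 of 8897 genes were higher in *Eln*-rich cells (11.4%) and 811 lower (9.12%). Against *Sox9*-type mesenchyme, 942 of 12020 were higher (7.84%) and 802 lower (6.67%). Counting genes called in the same direction in all 3 comparisons, which share those sums, gave 411 higher and 173 lower.

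Contractile genes were higher against both. Against *Sox9*-type mesenchyme 12 of 13 tested were higher and 0 lower (median 1.93 beside -0.02 over all genes), and against *Tcf21*-type 10 of 13 were higher and *Mylk* was lower (median 2.01 beside 0.01). Against *Sox9*-type 1 contractile gene was lower at an unadjusted p under 0.05, and 1 was called lower under 4 of the alternatives, among them the members that met the conditions of other mesenchyme. *Acta2* was higher by 2.99 and 1.99 and *Lmod1* by 5.67 and 5.77. Elastic fibre genes were higher for 10 of 24 and lower for 2 against *Sox9*-type, and higher for 14 of 21 and lower for 5 against *Tcf21*-type, where *Fbln2* was higher by 3.82 and *Fbn2* by 1.56. Both lists lost calls when 1 control was left out of the fit over every library. Contractile genes were then higher for 7 of 12 (without control 1) and 5 of 12 (without control 2) against *Sox9*-type and for 6 of 12 either way against *Tcf21*-type, with 0 lower. Stress and immediate early genes were higher for 10 of 14 and lower for 0 against *Tcf21*-type (median 0.87; 8 of 14 by DESeq2), a median above the 0.77 of the elastic fibre list, and higher for 3 of 16 against *Sox9*-type (median 0.24; 0 by DESeq2). Without control 1 and without control 2 in the fit over every library, 0 and 2 of 14 were higher against *Tcf21*-type. Their part in the other calls was not tested here either. In the same fit without control 1 and without control 2, elastic fibre genes were higher for 1 of 20 and 1 of 19 against *Sox9*-type. Their medians were -0.25 and -0.08, where the controls gave 0.10. Against *Tcf21*-type, 4 of 21 and 4 of 20 were then higher. DESeq2 called 6 of 24 elastic fibre genes higher against *Sox9*-type.

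Most of the cushion genes that passed were lower against *Sox9*-type and higher against *Tcf21*-type mesenchyme. The 2 classes were chosen by their counts of *Sox9*, itself a gene of the cushion list, and of *Tcf21*. Opposite directions can thus follow from that choice, and they are given as a description. Against *Sox9*-type mesenchyme 0 of 17 were higher and 14 lower (median -2.06), and against *Tcf21*-type 7 of 12 were higher and 2 lower (median 1.81). *Col2a1* was lower by 2.80 against *Sox9*-type and higher by 2.51 against *Tcf21*-type mesenchyme, and *Lef1* was lower by 2.06 and higher by 2.76. *Tbx2* (-3.06 and -2.38) and *Tbx20* (-1.29 and -1.82) were lower against both *Tcf21*-type and *Sox9*-type mesenchyme. With the limit at 0.6% of *Eln* and *Fbln5*, 3 of 9 cushion genes were higher and 4 lower against *Tcf21*-type mesenchyme (median 0.12), so the balance of calls there changed with the limit, while 15 of 17 were lower against *Sox9*-type. In the fit over every library that held a member, 3 of 8 were higher against *Tcf21*-type without control 1 and 2 of 7 without control 2, and 10 of 14 and 5 of 13 were lower against *Sox9*-type. Of 27 cell cycle genes, 13 were lower against *Tcf21*-type and 9 higher against *Sox9*-type mesenchyme by edgeR, but DESeq2 called 0 in both.

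The largest differences by the same rule were as follows. Against *Tcf21*-type mesenchyme, *Acan* and *Stac*, an adaptor protein gene, had 153 and 150 UMIs in members and 0 in the *Tcf21*-type cells of the controls, at least 35.9-fold and at least 35.2-fold higher when 3 UMIs over both libraries are taken as the floor. *Gm15050* (at least 22.1-fold) and *Hand1* (at least 17.8-fold) had 0 UMIs there as well, and *Clca3a2* had 1. *Ano5* had 0 UMIs in members and 70 in *Tcf21*-type cells, at least 33.1-fold lower. *Frem1*, *Ebf2* and *Rhox5* followed with 1, 2 and 1 UMIs in members. Against *Sox9*-type mesenchyme the leading increases were *Lmod1* (5.67), *Cxcl12* (5.52), *Pcdh7* (5.06), *Col24a1* (4.88) and *Cd55* (4.83), and leading decreases included *Rmst* (3 UMIs in members, a ratio of 43.8, counting interval 15 to 212), *Hapln1* (-4.79), *Gm35533* (-4.64) and *Kirrel3* (-4.30). *Cxcl12*, *Lmod1* and *Cd55* were called higher against all 3 classes.

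The label of arterial wall cells was read against these markers. *Eln* and *Fbln5* chose the members and say nothing on the label. *Prdm6*, *Sfrp2*, *Acta2*, *Tagln* and *Lmod1*, which the rule did not use, were present in the members of both control libraries, and *Myh11*, which defines mature vascular smooth muscle, was found in 25 of 312 control members. Part of the members, 44 of 72 in control 1 and 87 of 240 in control 2, also had *Sox9* UMIs. The data hold no position in the tissue, and the cells are therefore named here by their leading gene.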

How the data were processed

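Single-cell suspensions of E14.5 ventricles were profiled with the 10x Genomics 3' v3.1 chemistry. Per the labels, the authors used Cell Ranger 7.1.0, Seurat 4.3.0 and the mm10 build, and they deposited 1 matrix of UMI counts per library (whole numbers per gene and barcode, not normalized); the annotation release they counted on was not given in the sources used here. From these counts, the gates given above were applied to 45551 barcodes, UMIs were summed per library and class, and the sums were tested with edgeR 4.0.16 (glmQLFit, TMM scaling, filterByExpr, library as a term, genes called at an adjusted p of at most 0.05). The fit used the 2 control libraries, the ones with at least 10 members, so 4 sums left 1 residual degree of freedom and the spread was mostly borrowed across genes. The library term pairs classes from the same library. Genes used by the gates of a comparison were not tested in it, and *Sox9* and *Tcf21*, which define only the narrower classes, were tested against other mesenchyme.

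Levels are CPM of a class sum. Shares were taken after thinning each cell to 2000 UMIs, with exact 95% binomial intervals. No doublet caller was run, and leaving out cells over 2 times the median UMIs was tried instead. Cardiomyocytes (cardiomyocyte genes at 2% of UMIs or more) and endothelial cells (at least 5 UMIs of endothelial genes) gave the background. Positions came from GENCODE vM21 (32158 of 32285 gene IDs matched) and promoters from RefSeq GRCm38.p6. Alternatives were DESeq2 1.42.0, scaling by totals alone, testing every gene with a count, no library term, other gates and leaving out each library. The edgeR script was tested on simulated data.

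Genes were named from the label, contractile and elastic fibre lists, from called genes of the other lists (not all of either are named), and from the 15 largest increases and 10 largest decreases (5 each for *Tcf21*-type and *Sox9*-type mesenchyme) among called genes with a mean of at least 30 CPM in the higher class and the same direction in both libraries. *Ets1*, *Mylk* and genes described as not called are named as members of a list or as the targeted gene, and a few genes are not reported here. The members and lists were chosen with earlier results of these data known. Separate libraries came from separate pools of 3 ventricles, and with 1 residual degree of freedom the p-values rest mostly on spread shared across genes and little on the spread between these pools.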

Additional observations from a re-analysis of the deposited data

How the results depend on the processing

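The counts of genes higher and lower in *Eln*-rich cells depended on the tool. DESeq2 gave 312 higher and 181 lower against other mesenchyme, 285 and 164 against *Tcf21*-type and 265 and 179 against *Sox9*-type mesenchyme, where edgeR gave 811 and 672, 1015 and 811, and 942 and 802. With every library of at least 1 member, the counts were 503 and 523 against *Tcf21*-type and 439 and 493 against *Sox9*-type mesenchyme, and with the limit at 0.2% they were 527 and 490 against *Sox9*-type. With no replicate block (no library term), edgeR called 527 lower against *Sox9*-type mesenchyme, and its other counts stayed within 1.5 times. Leaving out a control leaves 1 library and no test, so libraries were also left out of the fit over every library, an alternative chosen after seeing the data. Counts with 1 library left out ranged from 178 to 811 higher and 152 to 672 lower against other mesenchyme, from 159 to 1015 and 169 to 811 against *Tcf21*-type, and from 69 to 942 and 93 to 802 against *Sox9*-type mesenchyme, lowest without control 2 except for *Tcf21*-type, lowest without control 1. The top of each range is the fit on the 2 controls, to which the *Ets1* eKO libraries gave no sum, and the bottom comes from the fit over every library, which itself gave 620 and 551 against other mesenchyme. The cause was not tested.

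Without 1 library, the difference in cells with *Acta2* ranged from 41.2 to 57.1 percentage points and that in cycling cells from 0.0162 to 4.94. At 0.6% of *Eln* and *Fbln5*, with 194 members, they were 63.3 and 8.99 points, against 49.2 and 2.48. Single genes turned when control 2 was left out: *Sox9* ranged from -2.07 to 0.11 on the log2 scale, *Tpm1* from -0.015 to 1.54 and *Flt1* from -0.30 (-0.23 in control 1 alone) to 1.56. *Fos* ranged from -0.57 without control 1 and -0.20 without control 2 to 1.17. Of 141 named genes against other mesenchyme, 98 lost no call under any alternative with a value that kept both controls, and none turned. *Myh11*, *Acan* and *Alk* rest on few UMIs in control 1. Intervals and floors cover counting error only, and the 3 and 5 members of the *Ets1* eKO libraries are too few for a sum.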

Other observations

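The Hox genes were looked at after the values of *Hotairm1* and *Gm15050* had been seen. Their calls below are therefore a description and no test of the clusters. *Hotairm1* is a noncoding transcript of the HoxA cluster (chr6:52156902-52162119, plus strand), and *Gm15050* lies on the opposite strand within the span of *Hoxa3* (chr6:52172881-52174059, plus strand). *Hotairm1* was at 65.2 and 86.7 CPM in *Eln*-rich cells of the controls against 2.06 and 6.29 in other mesenchyme, and *Gm15050* at 34.5 and 41.2 against 1.03 and 1.66. Both lay in the anterior end of the HoxA cluster.

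Of 39 Hox genes in the files, 9 had enough counts to be tested and 7 were higher in *Eln*-rich cells, with 0 lower by edgeR. *Hoxa2* had 13 UMIs in members against 6 in other mesenchyme (log2 fold change 4.35), although members held 521258 and 1845506 UMIs in all and other mesenchyme 11658655 and 11450181. *Hoxa3* had 28 against 22 (3.33) and *Hoxa4* 20 against 10 (4.0). In the HoxB cluster *Hoxb4* had 71 against 52 (3.38), *Hoxb3* 27 against 32 (2.77) and *Hoxb2* 36 against 76 (1.98). These genes belong to the anterior paralog groups, which pharyngeal and cardiac neural crest and posterior second heart field are known to use. *Hoxd3* and *Hoxd4* were tested and not called. The posterior genes *Hoxa9* and *Hoxa10* had 0 UMIs in members against 17 and 13 in other mesenchyme, too few to test. Strand was not checked in the counts, so overlapping sense and antisense transcripts of these clusters are uncertain.

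The members were not uniform. In control 2, the 25 members with *Upk3b* UMIs had *Wt1*, an epicardial and mesothelial factor, at 219 CPM against 30.0 in the members without, and 3 of 72 members of control 1 had *Upk3b*. Members with *Sox9* UMIs had less *Eln* than those without, 4369 against 5274 CPM in control 1 and 4877 against 7574 in control 2, and less *Acta2*, 1142 against 1454 and 1713 against 2321. These splits are descriptions within 2 libraries, and no test was made.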
